A study of Mus musculus with 48 samples.

Results

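Rmrp, Rpph1, Rn7sk, Rny1 and Rny3 are short structural RNAs made by RNA polymerase III, and Ccdc107 is the protein-coding gene whose exon lies over Rmrp on the opposite strand. These 6 genes were taken by name out of the 48526 genes counted in the series, and each has 1 row of counts. The set was chosen by measured values of these same libraries: Rmrp for its difference in synaptosomal pellets between 5 months and 3 weeks, and Ccdc107 for that in the pellet over input ratio of total homogenate between 18 and 5 months, the others by kinship with Rmrp. Values from those contrasts, and from the contrasts they are built of, are therefore given below as a description with no test. For Ccdc107 this holds as well for every comparison that contains its pellet over input ratio in homogenate at 5 or 18 months. Other comparisons of Rmrp still share the synaptosomal pellets at 3 weeks or 5 months that chose it. Those of Ccdc107 share its homogenate libraries at 5 or 18 months. Their tests are given, but they are not independent of the choice. The libraries come from the cortex of 12 wild-type male C57BL/6JRj mice (Janvier), with 4 mice at 3 weeks (3w), 4 at 5 months (5m) and 4 at 18 months (18m), and the labels name no genetic change or drug for any group. The middle age is 6 months in the sample labels and 5 months in the treatment protocol and the methods of the study, and 5m is used here. Each mouse gave total homogenate (TH) and synaptosomes (SYN), the pinched-off nerve endings collected on a sucrose gradient, which also carry glial membranes and their RNA. From each of these, RNA was sequenced as such (input) and after a spin through a sucrose cushion (SC), in whose pellet ribosomes and the RNA they hold collect, together with any other particle heavy enough to sediment. By the methods of the study, TH lysates were centrifuged before they were loaded on the cushion, and no such spin is described for SYN. The 12 groups of fraction and age hold 4 libraries each, 48 in all.

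Rmrp is the RNA of RNase MRP, a nucleolar ribonucleoprotein that cuts the precursor of ribosomal RNA, and Rpph1 is the catalytic RNA of RNase P, which trims the 5′ end of precursor transfer RNA. The 2 enzymes share most of their protein subunits. Rn7sk (7SK) is a nuclear RNA that holds the elongation factor P-TEFb inactive through Hexim1 or Hexim2, capped by Mepce and bound at its 3′ end by Larp7. The Y RNAs Rny1 and Rny3 bind the Ro60 protein (gene Trove2) and the La protein (gene Ssb). Mutations of the human counterpart of Rmrp cause cartilage-hair hypoplasia. None of these RNAs codes for a protein, whereas Ccdc107 codes for a coiled-coil protein.

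In the annotation of GRCm38 that the counts match, Rmrp (ENSMUSG00000088088) lies on the minus strand of chromosome 4 from base 43492788 to 43493058, a single exon of 271 bases. Ccdc107 (ENSMUSG00000028461) lies on the plus strand at chromosome 4, 43492900 to 43495921, with 1547 exonic bases. Its first exonic stretch, 43492900 to 43493023, falls whole within Rmrp, so that 124 bases are exonic in both genes, 112 bases on the 3′ side of Rmrp and 35 on its 5′ side belong to Rmrp alone, and the next exonic stretch of Ccdc107 starts 303 bases from the 5′ end of Rmrp. The counting ignored strand, and in these 124 bases a read of one gene cannot be told from a read of the other. Of 222 windows of 50 bases along Rmrp, 75 (33.8%) lie whole in the Ccdc107 exon, against 75 of 1635 (4.59%) along Ccdc107. Windows partly in the exon are not in this count, and by the methods of the study the reads were longer than 50 bases. These window shares, and those below, are therefore not shares of reads. Rpph1 (ENSMUSG00000092837; chromosome 14, 50807449 to 50807767, minus strand, 319 bases) lies inside the gene Ccnb1ip1 on the same strand, and 184 of its 270 windows (68.1%) are in an annotated transcript of that gene, which itself had a mean of 0.04 counts per library. Rn7sk (ENSMUSG00000065037; chromosome 9, 78175303 to 78175633, minus strand, 331 bases) shared 192 of 282 windows (68.1%) with 7 other annotated genes. Rny1 (ENSMUSG00000065701; chromosome 6, 47788069 to 47788180, minus strand, 112 bases) shared 12 of 63 windows (19.0%) with 1 gene, and Rny3 (ENSMUSG00000064945; chromosome 6, 47781624 to 47781725, plus strand, 102 bases) shared 0 of 53. For the counting, the methods of the study list a strand setting only. They do not state how reads with several positions or several genes were treated. The levels of Rn7sk and Rpph1 are therefore uncertain where copies share sequence, and those of Rmrp and Ccdc107 where their exons overlap. Within 10 kb of the members, the other annotated genes with a row of counts were Arhgef39, Gm12454 and Sit1 near Ccdc107 (means of 1.79, 1.12 and 0.10 counts per library), Parp2 73 bases from Rpph1 (65.8), C920006O11Rik, Ick and Gsta4 near Rn7sk (7.67, 173.4 and 195.4), and Pdia4 (591.4) and the pseudogene Rpl31-ps7 (0.0) near the Y RNAs.

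**Figure D1:**
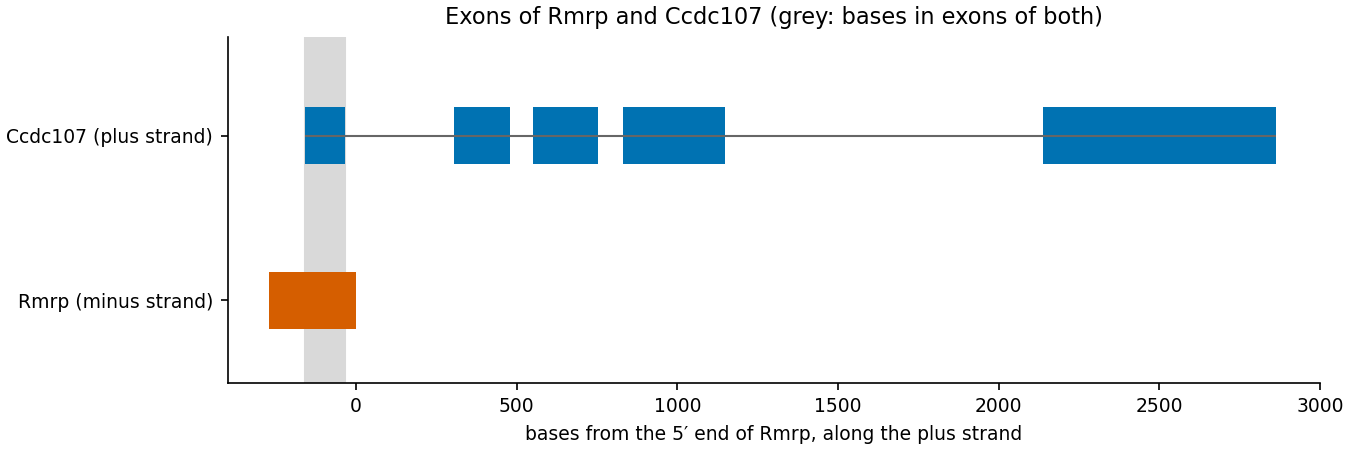
Exons of Rmrp and Ccdc107 on chromosome 4 in GRCm38, drawn as boxes to scale; the horizontal axis gives bases from the 5′ end of Rmrp along the plus strand, and the line joins the exonic stretches of Ccdc107. The grey band marks the 124 bases that are exonic in both genes, at the far left of Ccdc107.

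The RNA sequences are shown because the overlap and the shared stretches bear on what a read can be assigned to. They are the annotated transcripts, 5′ to 3′ on the gene's strand, written as DNA. In Rmrp (chr4:43492788-43493058) the capitals are the bases under the Ccdc107 exon, positions 36 to 159 of the RNA.
Rmrp: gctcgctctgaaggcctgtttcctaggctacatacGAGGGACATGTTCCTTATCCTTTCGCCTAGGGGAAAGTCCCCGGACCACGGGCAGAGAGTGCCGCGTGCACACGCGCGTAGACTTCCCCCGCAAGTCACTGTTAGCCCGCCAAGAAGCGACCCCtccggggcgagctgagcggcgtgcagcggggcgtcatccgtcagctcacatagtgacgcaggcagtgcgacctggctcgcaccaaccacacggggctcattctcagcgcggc
In the first 300 bases of Rpph1 (chr14:50807468-50807767) the capitals are a run of 21 bases that occurs in tandem, at positions 182 and 203.
Rpph1: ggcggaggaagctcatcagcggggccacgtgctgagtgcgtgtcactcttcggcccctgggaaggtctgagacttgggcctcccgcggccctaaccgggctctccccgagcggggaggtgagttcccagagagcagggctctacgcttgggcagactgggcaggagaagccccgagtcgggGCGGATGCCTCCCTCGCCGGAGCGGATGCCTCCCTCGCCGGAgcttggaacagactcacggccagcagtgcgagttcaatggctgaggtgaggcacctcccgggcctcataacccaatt
In the first 300 bases of Rn7sk (chr9:78175334-78175633) the capitals are its 3 GATC tetramers, read on the RNA strand.
Rn7sk: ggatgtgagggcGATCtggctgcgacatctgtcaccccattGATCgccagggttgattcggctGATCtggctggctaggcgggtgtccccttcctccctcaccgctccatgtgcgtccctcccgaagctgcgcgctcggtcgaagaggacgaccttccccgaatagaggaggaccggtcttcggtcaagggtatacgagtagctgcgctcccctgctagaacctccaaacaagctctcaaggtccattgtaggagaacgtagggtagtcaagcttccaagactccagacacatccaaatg
In Rny1 (chr6:47788069-47788180) and Rny3 (chr6:47781624-47781725) the capitals are the longest run the Y RNAs share, 12 bases.
Rny1: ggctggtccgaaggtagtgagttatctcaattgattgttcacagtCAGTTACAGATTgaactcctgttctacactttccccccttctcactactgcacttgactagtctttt
Rny3: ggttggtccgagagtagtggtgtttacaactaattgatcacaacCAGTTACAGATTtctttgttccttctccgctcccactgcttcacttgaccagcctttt
The longest run that Rmrp and Rpph1 share has 9 bases.

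The RefSeq promoter window of Ccdc107 (GRCm38.p6) reaches into the bases upstream of Rmrp. Polymerase III genes with upstream promoters often carry an octamer element, and the stretch chr4:43493224-43493331 (plus strand) is shown for it. The capitals are the octamer ATGCAAAT at 43493274 to 43493281, which is 215 bases from the 5′ end of Rmrp.
Ccdc107 promoter: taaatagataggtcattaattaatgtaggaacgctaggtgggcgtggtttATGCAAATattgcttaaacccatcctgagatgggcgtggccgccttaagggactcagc
On either strand, 570 of 32851 RefSeq promoter windows of 300 bases (1.74%) hold these 8 letters. Of the 6 genes, 1 had a promoter window in the table, Ccdc107, and the match is a description of sequence and no evidence of binding. In the annotation used for the exons, the stretch lies between the first exonic stretch of Ccdc107, ending at 43493023, and the next, from 43493362. RefSeq thus places the start of this gene elsewhere, and the overlap with Rmrp rests on the annotation that the counts match.

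Library totals were 9699909 to 13225435 counts in TH input, 3058278 to 15423546 in TH pellets, 1780267 to 7879536 in SYN input and 5341263 to 18590040 in SYN pellets. All 8 neuronal markers checked (Snap25, Syt1 and Camk2a among them) had counts in every library. Over all ages, astrocyte markers (Gfap, Aqp4 and 4 others) summed to 12357 to 15875 CPM in SYN input. In TH input they summed to 3410 to 4834 CPM, so the synaptosomes held glial RNA. The 8 nuclear long noncoding RNAs checked, such as Malat1 and Neat1, summed to 18666 to 20010 CPM in TH input and 1753 to 3517 CPM in SYN input, both at 3w. In bulk RNA, fewer cells of a type and less RNA per cell cannot be told apart. The labels do not say that mice were pooled, and the n of 4 counts mice.

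Rmrp, Rpph1 and Rn7sk together made up 1.557% to 2.133% of all counts in TH input. In TH pellets their share was 0.02253% to 0.1261%, in SYN input 0.07678% to 0.2496% and in SYN pellets 0.005854% to 0.03196%. The shares in TH input and in TH pellets did not overlap, nor did those in SYN input and SYN pellets. Levels below are CPM, counts scaled to 1000000 of the TMM-scaled library total, and comparisons between genes use CPM per kilobase of exon.

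**Figure D2:**
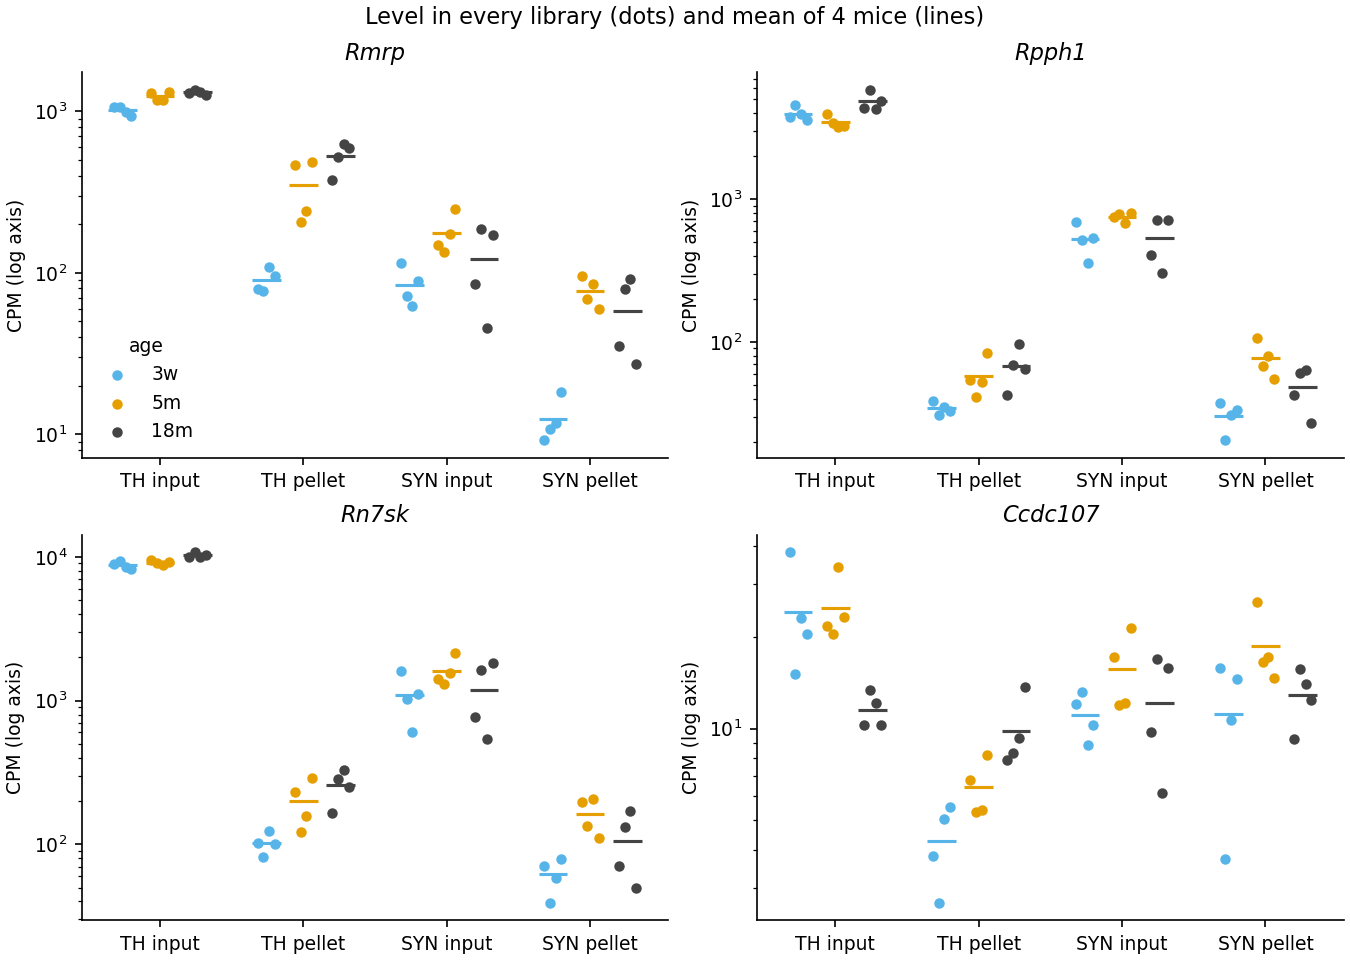
CPM of Rmrp, Rpph1, Rn7sk and Ccdc107 (log axis) in the 48 libraries, by fraction and age; each dot is a library and each line the mean of 4 mice. Rmrp, Rpph1 and Rn7sk are highest in TH input at every age, and the TH pellets of Rmrp climb from 76.8 to 108.6 CPM at 3w to 376.8 to 629.7 CPM at 18m.

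Rmrp was most abundant in TH input, with a mean of 1014 ± 61.9 CPM at 3w, 1237 ± 73.3 at 5m and 1307 ± 40.1 at 18m (SD, n = 4 mice each). TH pellets came next, with 90.1 ± 15.0 CPM at 3w, 349.5 ± 145.6 at 5m and 528.4 ± 111.0 at 18m. SYN input held 84.5 ± 23.3, 176.2 ± 51.2 and 122.4 ± 68.1 CPM at the same ages. SYN pellets held 12.5 ± 3.95, 77.4 ± 16.1 and 58.3 ± 31.7 CPM. At 3w the TH pellets and SYN input overlapped, so these neighbours in the order did not differ beyond their spread, and at 5m the lowest TH pellet (206.4 CPM) lay below the highest SYN input (248.8 CPM). Between its highest and lowest group Rmrp spanned 104.9-fold.

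Rn7sk, the most abundant of the set, lay between 8212 and 10814 CPM in all 12 TH inputs. SYN inputs held 601.9 to 1602 CPM at 3w, 1296 to 2151 at 5m and 541.4 to 1812 at 18m, and the ages overlapped. Rpph1 lay between 3182 and 5839 CPM in TH input and between 304.8 and 800.8 CPM in SYN input. Both RNAs spanned a wider range than Rmrp, 166.6-fold for Rn7sk and 159.4-fold for Rpph1 between highest and lowest group. Ccdc107 spanned 5.84-fold, with means from 4.26 ± 1.28 CPM in TH pellets at 3w to 24.9 ± 6.19 CPM in TH input at 5m (SD, n = 4).

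Per kilobase of exon, the order in TH input at 3w was Rn7sk (26439 ± 1474 CPM per kb), Rpph1 (12369 ± 1327), Rmrp (3742 ± 228.2) and Ccdc107 (15.7 ± 6.36). In TH pellets at 18m the order was another: Rmrp led with 1950 ± 409.8 CPM per kb, ahead of Rn7sk (776.9 ± 207.8) and Rpph1 (213.7 ± 70.4). In SYN pellets at 5m Rn7sk had 489.0 ± 142.4, Rmrp 285.7 ± 59.3 and Rpph1 241.3 ± 68.3 CPM per kb, with spreads of Rmrp and Rpph1 that overlapped. The lengths include bases shared with other genes, so these orders carry the uncertainty of read assignment given above.

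The Y RNAs were close to absent from these counts. Rny1 had 15 counts in all 48 libraries, 13 of them in 8 TH inputs and 2 in 1 SYN input, and no library held more than 3. Rny3 had 8 counts, all in 5 TH inputs, with at most 4 in a library. In the 24 pellets both RNAs were at 0, which allows up to 3 counts per library, or 0.162 to 0.826 CPM in TH pellets and 0.199 to 0.655 CPM in SYN pellets. These limits cover counting error only. Neither Y RNA passed the filter on low counts in any fit, so 4 of the 6 genes were tested, and those 4 passed in every fit.

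The first question was whether the RNAs bound in pellets change between 3 weeks and 5 months, tested in TH pellets. This contrast was not used to choose the genes, but its 5m pellets also stand in the 18m against 5m step that led to Ccdc107. Rmrp rose 3.90-fold, Rn7sk 1.97-fold and Rpph1 1.70-fold. Rmrp levels were 79.0, 76.8, 108.6 and 96.1 CPM in the TH pellets of the 3w mice and 467.8, 206.4, 241.8 and 481.9 CPM in those of the 5m mice. Every 5m pellet lay above every 3w pellet, and 2 of the 5m mice (191 and 194) lay well above the other 2. The log2 fold change was 1.96 with an SE of 0.24 (edgeR adjusted p = 7.133e-05), and leaving out each mouse in turn gave 1.75 to 2.14.

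Rn7sk, the RNA that restrains P-TEFb, was at 102.1, 81.2, 123.6 and 100.5 CPM in TH pellets at 3w and at 230.6, 122.7, 157.1 and 290.8 CPM at 5m. The lowest 5m pellet lay just under the highest 3w pellet, so the groups overlapped by 1 library. Its log2 fold change was 0.98 with an SE of 0.23 (edgeR adjusted p = 0.008874). Rpph1, the RNA of RNase P, was at 38.6, 30.8, 34.8 and 33.0 CPM at 3w and 54.4, 40.9, 52.5 and 84.2 CPM at 5m, without overlap. Its log2 fold change was 0.77 with an SE of 0.23 (edgeR adjusted p = 0.02725). That call was lost without mouse 187, 188, 189, 190 or 194. Ccdc107 was at 3.82, 2.68, 5.05 and 5.51 CPM at 3w and 6.80, 5.31, 5.40 and 8.21 CPM at 5m. The lower 2 of the 5m pellets lay within the 3w range, and the log2 fold change of 0.61 (SE 0.25) did not pass (edgeR adjusted p = 0.1011). Of the 4 tested members 3 were called, all higher at 5m, while 17.9% of all genes tested were called in either direction.

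Other features of the TH pellets moved with age as well. Totals were 3058278 to 7119395 counts at 3w and 5992223 to 13484631 at 5m. The oligodendrocyte markers Mbp, Mog, Mag, Mobp and Cnp, genes of myelin, fell between 3w and 5m, with log2 fold changes of -0.62, -1.13, -0.99, -1.0 and -0.93 (SE 0.09 to 0.13). Of 8 nuclear long noncoding RNAs 5 fell (Kcnq1ot1, Miat, Rian, Meg3 and Snhg11) and 0 rose, with a median of -0.40, and their sum was 10766 to 14176 CPM at 3w and 7735 to 11392 CPM at 5m. Of the erythrocyte markers 4 of 5 fell (Hba-a1, Hba-a2, Hbb-bs and Hbb-bt), of the astrocyte markers 3 of 6 (Aqp4, Gja1 and Slc1a2) and of the endothelial markers 1 of 5 (Cldn5), while 2 of 6 microglial markers (C1qa and C1qb) and 1 of 8 neuronal markers (Gad1) rose. All of these markers were detected, none was at 0, and their part in the change of Rmrp was not tested. The share of all genes called in this contrast was 17.9%.

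Library totals differed among the pellets as well, and Rmrp did not follow them in the same way in every group. In SYN pellets at 18m, mice 195 and 198 had 6268207 and 5341263 counts and Rmrp at 35.3 and 27.3 CPM, whereas mice 196 and 197 had 18590040 and 15306804 counts and Rmrp at 79.4 and 91.3 CPM. SYN pellets at 3w had 5415274 to 6132944 counts and 9.17 to 18.2 CPM. In SYN pellets at 5m the order ran the other way, with 95.7 CPM at 8328535 counts, 68.8 at 10240054, 85.3 at 10341842 and 60.0 at 14557582. In TH pellets, mouse 189 (3w, 7119395 counts) had 108.6 CPM and mouse 192 (5m, 5992223 counts) had 206.4 CPM. These are values of single libraries, and no groups were matched for depth. The part of depth in the age change was not tested.

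**Figure D3:**
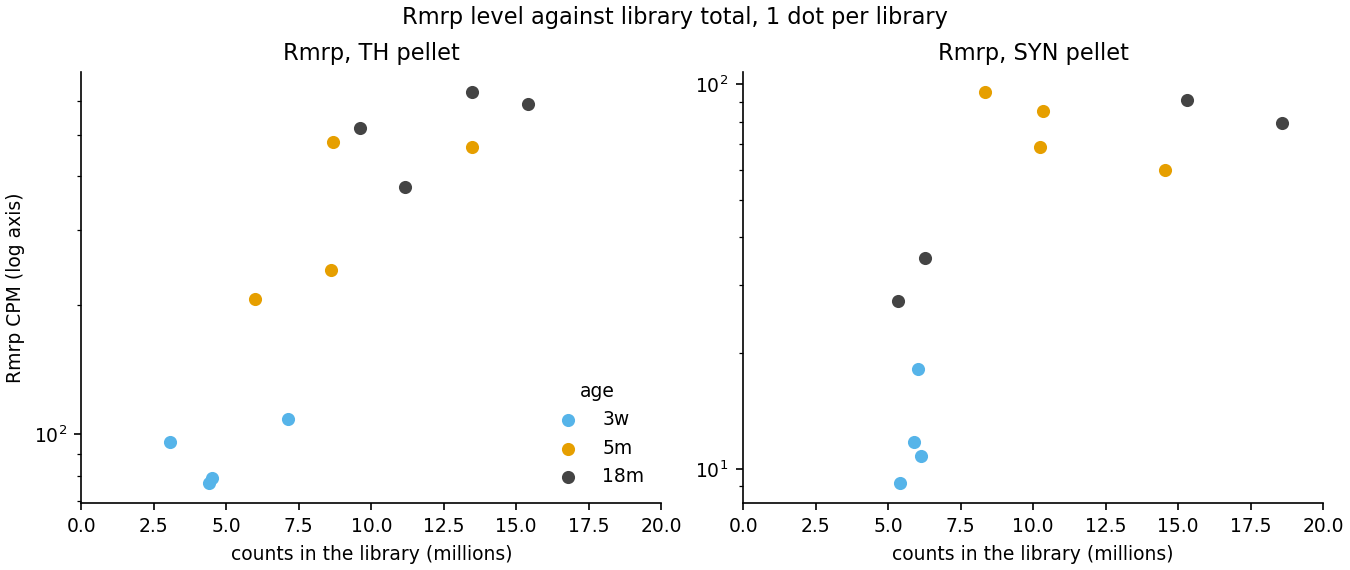
Rmrp CPM (log axis) against the library total, in units of 1000000 counts, for TH pellets at the left and SYN pellets at the right; 1 dot is 1 library and the colour is the age. The 4 SYN pellets at 18m split into 2 near totals of 5.34 and 6.27 units at 27.3 and 35.3 CPM and 2 near 15.31 and 18.59 units at 91.3 and 79.4 CPM.

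In SYN pellets between 3w and 5m, the contrast that led to Rmrp being chosen, Rmrp was at 9.17, 10.8, 11.7 and 18.2 CPM at 3w and at 95.7, 68.8, 85.3 and 60.0 CPM at 5m. The groups lay far apart, with a log2 fold change of 2.58 (SE 0.35). Rn7sk was at 70.9, 39.2, 58.1 and 78.6 CPM at 3w and at 198.2, 134.1, 205.2 and 110.0 CPM at 5m, with a change of 1.34 on the log2 scale (SE 0.33). Rpph1 was at 37.3, 20.4, 30.5 and 33.1 CPM at 3w and at 105.9, 67.5, 79.8 and 54.8 CPM at 5m, with a change of 1.30 (SE 0.27). The groups of Rn7sk and Rpph1 did not overlap, while those of Ccdc107 did (3.73 to 15.8 CPM at 3w and 14.6 to 26.1 CPM at 5m; log2 fold change 0.68, SE 0.32). These differences chose the set or come from the same contrast and carry no test.

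In TH between 5m and 18m, the values that led to Ccdc107, its level fell in input and was higher in pellets. Its TH inputs held 21.7, 20.5, 34.0 and 23.4 CPM at 5m and 10.3, 13.4, 12.2 and 10.3 CPM at 18m, without overlap and with a change of -1.11 on the log2 scale (SE 0.23). TH pellets held 5.31 to 8.21 CPM at 5m and 7.88, 8.30, 9.31 and 13.7 CPM at 18m, and the ranges touched. The pellet over input ratio of Ccdc107 was thereby higher at 18m by 1.73 on the log2 scale (SE 0.33). For Rmrp, whose exon shares the 124 bases shown above, the same ratio differed by 0.52 (SE 0.26), for Rn7sk by 0.20 (SE 0.25) and for Rpph1 by -0.25 (SE 0.24). Rmrp in TH pellets at 18m was at 376.8, 518.4, 629.7 and 588.8 CPM, higher than at 5m by 0.60 on the log2 scale (SE 0.23), with ranges that overlapped. The 5m libraries serve in both age steps, so the steps are not independent. No test is given for these values.

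TH input showed little change of the structural RNAs between 3w and 5m. Rmrp was at 1066, 1063, 987.3 and 939.2 CPM at 3w and at 1293, 1174, 1173 and 1308 CPM at 5m. All 5m inputs were higher than all 3w inputs, with a log2 fold change of 0.28 (SE 0.06; edgeR adjusted p = 0.003232), 1.22-fold. Fitted with all 48 libraries together the adjusted p of Rmrp was 0.7607. Rpph1 (-0.20, SE 0.10), Rn7sk (0.06, SE 0.05) and Ccdc107 (0.02, SE 0.21) did not pass. The call on 1 of 4 members compares with 11.8% of all genes.

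In SYN input the same age step gave Rmrp values of 115.0, 71.9, 61.9 and 89.2 CPM at 3w and 148.1, 133.9, 174.1 and 248.8 CPM at 5m. The groups did not overlap, and the log2 fold change was 1.01 (SE 0.32; edgeR adjusted p = 0.09573). A fit of those 8 libraries alone gave an edgeR adjusted p of 0.001969. By edgeR 0 of 4 members were called, against 3.22% of genes, with 2 at an unadjusted p under 0.05 and 0 by DESeq2. Between 5m and 18m in SYN input, log2 fold changes ran from -0.33 for Ccdc107 to -0.52 for Rmrp, and edgeR called 0 of 4 (0.139% of genes; 1 at an unadjusted p under 0.05, 0 by DESeq2). In SYN pellets the 18m libraries against 5m gave -0.37 (SE 0.31) for Rmrp, -0.63 (SE 0.26) for Rpph1, -0.59 (SE 0.32) for Rn7sk and -0.48 (SE 0.31) for Ccdc107. By edgeR 0 of 4 passed (0.014% of genes; 1 at an unadjusted p under 0.05, 0 by DESeq2). Without the shallow SYN pellets of mice 195 and 198, the value of Rmrp was 0.14 in the other direction. The 5m SYN pellets are among those that chose Rmrp, so its values here are not independent of the choice.

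The next comparison set synaptosomes against homogenate, to see how far each RNA is found in the nerve-ending fraction. In input, the 3 nuclear structural RNAs were all lower in SYN at all ages. Rmrp was 11.8-fold lower at 3w, 6.96-fold at 5m and 10.4-fold at 18m (log2 fold changes -3.56, SE 0.26; -2.80, SE 0.25; -3.38, SE 0.25). Rn7sk was 8.01-fold, 5.67-fold and 8.57-fold lower, and Rpph1 7.48-fold, 4.56-fold and 8.94-fold lower. No SYN input overlapped a TH input for these RNAs, and the largest edgeR adjusted p of the 9 tests was 1.908e-09. Ccdc107 differed less: it was lower in SYN by a log2 fold change of -1.08 at 3w (SE 0.29; edgeR adjusted p = 0.001658) and -0.63 at 5m (SE 0.27; edgeR adjusted p = 0.03604), the latter lost without mouse 192 or 193, and stood at 0.18 (SE 0.26) at 18m. The TH inputs of 5m and 18m belong to the step that chose Ccdc107. Only its 3w test does not compare them, though they enter the spread of the fit, so it is not fully independent of the choice. The called members were 4 of 4 at 3w, 4 of 4 at 5m and 3 of 4 at 18m, all lower in SYN, against 71.0%, 72.7% and 72.3% of genes called in either direction. Scaling by library size in place of TMM moves the median of all genes by -0.53 to -0.65 in these SYN against TH contrasts, far less than the differences of Rmrp, Rn7sk and Rpph1 in input.

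In pellets the members parted. Only the TH pellets are described as coming from lysates spun before the cushion, so these comparisons include that step. Rmrp was lower in SYN pellets than in TH pellets 6.94-fold at 3w, 4.48-fold at 5m and 8.74-fold at 18m, with no overlap at any age (edgeR adjusted p = 1.709e-07, 9.253e-07 and 7.434e-09). At 3w and 5m these tests use the SYN pellets that chose Rmrp and are not independent of the choice. Rpph1 did not pass at any age, with log2 fold changes of -0.13 (SE 0.28) at 3w, 0.42 (SE 0.26) at 5m and -0.45 (SE 0.26) at 18m. These calls turned with the scaling: with library size in place of TMM, Rpph1 was lower in SYN at 3w (-0.67, edgeR adjusted p = 0.03256) and at 18m (-0.99, edgeR adjusted p = 0.001255), and without mouse 194 it was higher in SYN at 5m (0.81, edgeR adjusted p = 0.01218). With no filter on low counts its edgeR adjusted p at 18m was 0.04344. Rn7sk was lower in SYN at 18m by -1.25 (SE 0.31; edgeR adjusted p = 0.001183), though not without the SYN pellets of mice 195 and 198 (-0.69; edgeR adjusted p = 0.06025). At 3w it was at -0.67 (SE 0.32; edgeR adjusted p = 0.07109), and with the mouse as a block in the paired fit at -0.70 (edgeR adjusted p = 0.02595). With library size Rn7sk was lower in SYN at 3w (-1.21, edgeR adjusted p = 0.001468) and at 5m (-0.88, edgeR adjusted p = 0.01087), where it was at -0.29 (SE 0.31) with TMM. Ccdc107 was higher in SYN pellets, 2.73-fold at 3w (edgeR adjusted p = 0.0007085) and 2.89-fold at 5m (edgeR adjusted p = 3.816e-05), and at 0.43 on the log2 scale (SE 0.27) at 18m. The TH pellets of 5m and 18m belong to the step that chose Ccdc107. Only its 3w test does not compare them, though they enter the spread of the fit, so it is not fully independent of the choice. At each age 2 of 4 members were called, against 63.5% of genes at 3w, 67.8% at 5m and 62.1% at 18m.

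Pellet against input sets what sediments through the cushion beside what the input holds. In TH the values also include any loss in the spin of the lysate before the cushion. That step was not tested apart from the cushion. Rpph1 and Rn7sk were depleted in TH pellets far more than Rmrp. At 3w the TH pellet held Rpph1 113.5-fold lower than input, Rn7sk 84.5-fold lower and Rmrp 11.1-fold lower. At 5m the factors were 59.0, 45.3 and 3.52, and at 18m 70.1, 39.6 and 2.45. Every TH pellet lay below every TH input for these RNAs, and the largest edgeR adjusted p of the 9 tests was 7.32e-07, that of Rmrp at 18m. Ccdc107 was 5.65-fold lower at 3w (edgeR adjusted p = 3.697e-08). At 5m and 18m, whose difference led to its choice, it stood at -1.93 (SE 0.24) and -0.20 (SE 0.23) on the log2 scale, with no test. Called members were 4 of 4 tested at 3w, 3 of 3 at 5m and 3 of 3 at 18m, all lower in the pellet, where 52.8%, 62.1% and 64.0% of genes were called.

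**Figure D4:**
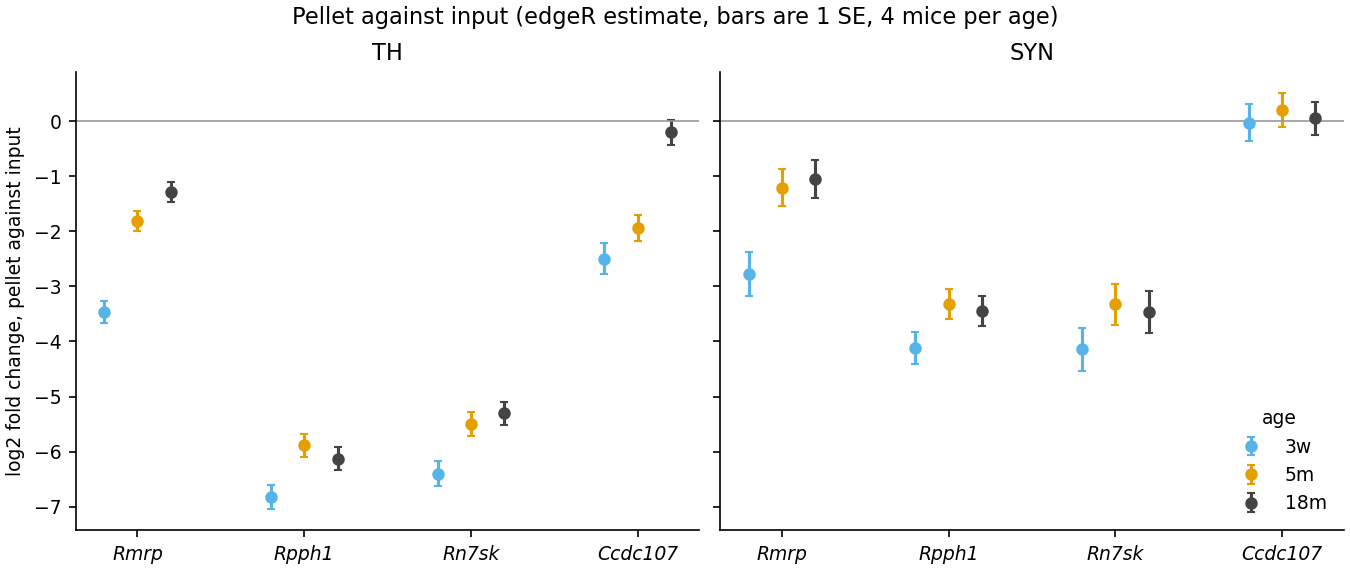
Log2 fold change of pellet against input (edgeR estimate, bars 1 SE, 4 mice per age) for Rmrp, Rpph1, Rn7sk and Ccdc107 in TH at the left and SYN at the right. In TH, Rpph1 and Rn7sk lie between -5.31 and -6.83, whereas Rmrp moves from -3.47 at 3w to -1.29 at 18m.

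In SYN the pellets were also poorer in these RNAs than the input. Rpph1 was lower by log2 fold changes of -4.12, -3.32 and -3.45 at 3w, 5m and 18m (SE 0.29, 0.28 and 0.28), and Rn7sk by -4.15, -3.33 and -3.47 (SE 0.40, 0.38 and 0.38). The largest edgeR adjusted p of those 6 tests was 1.994e-06. Rmrp was lower by -2.78 at 3w (SE 0.39; edgeR adjusted p = 3.673e-05), -1.21 at 5m (SE 0.34; edgeR adjusted p = 0.01271) and -1.05 at 18m (SE 0.34; edgeR adjusted p = 0.04025). The SYN pellets at 3w and 5m are those whose difference chose Rmrp, so its tests at these ages are not independent of the choice. The call at 5m was lost without mouse 194 (edgeR adjusted p = 0.1289). That at 18m was lost without mouse 192, 193, 195, 196 or 198, with the mouse as a block (-1.07; edgeR adjusted p = 0.07824), and without the SYN pellets of both mice 195 and 198 (-0.56; edgeR adjusted p = 0.3214). Ccdc107 was at -0.03, 0.20 and 0.05 (SE 0.34, 0.31 and 0.30) and passed at no age. At each age 3 of 4 members were called, all lower in the pellet, against 18.5%, 20.0% and 12.6% of genes.

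The ratio of 2 RNAs within a library does not depend on its depth or scaling, and the members were also compared that way. These ratios were picked after the values were seen and are given with no test. In TH input there were 0.1135 to 0.1418 Rmrp reads per Rn7sk read in all 12 mice. In TH pellets the ratio was 0.774, 0.946, 0.878 and 0.956 at 3w, 2.03, 1.68, 1.54 and 1.66 at 5m, and 2.27, 1.81, 1.92 and 2.37 at 18m. Every mouse had a higher ratio in the pellet than in its input, from 6.43 to 19.3 times. In SYN pellets the ratio was 0.129, 0.275, 0.201 and 0.231 at 3w, 0.483, 0.513, 0.416 and 0.545 at 5m, and 0.504, 0.606, 0.534 and 0.548 at 18m, the 3w values below all others. The SYN pellets at 3w and 5m are those whose difference chose Rmrp, so this order is not independent of the choice. The 2 shallow SYN pellets of 18m (mice 195 and 198), low in Rmrp CPM, had ratios of 0.504 and 0.548, within the range of the other 18m and 5m pellets.

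Rpph1 per Rn7sk read, by contrast, stayed between 0.236 and 0.607 in all 48 libraries. It was lower in the TH pellet than in the TH input of 12 of 12 mice, by a mean factor of 0.692, and higher in SYN than in TH pellets of 12 of 12 mice, by 1.64 times. Ccdc107 per Rmrp read was at most 0.0358 in TH input and 0.0573 in TH pellets, so in homogenate Rmrp outnumbered Ccdc107 by a wide margin. In SYN pellets at 3w the ratio ran from 0.346 to 1.73.

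**Figure D5:**
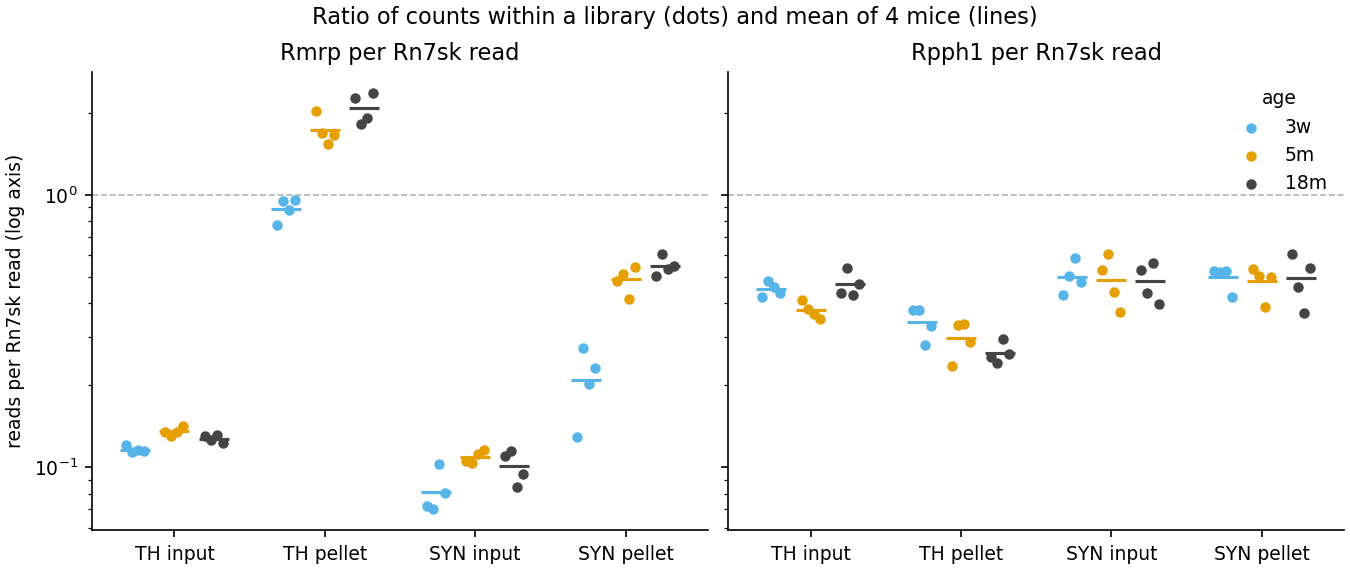
Reads of Rmrp (left) and Rpph1 (right) per read of Rn7sk (log axis) in each library, by fraction and age, with lines at the mean of 4 mice and a dashed line at 1 read per read. Rmrp per Rn7sk lies at 0.1135 to 0.1418 in TH input and at 1.54 to 2.37 in TH pellets at 5m and 18m, while Rpph1 per Rn7sk stays between 0.236 and 0.607.

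Whether the pellet over input ratio of a gene changed with age was tested as an interaction in 1 model of both library kinds. In TH from 3w to 5m the ratio of Rmrp rose by 1.66 on the log2 scale (SE 0.26; edgeR adjusted p = 0.006548), 3.15-fold. That of Rpph1 rose by 0.94 (SE 0.26; edgeR adjusted p = 0.04784), that of Rn7sk was 0.90 higher (SE 0.26; edgeR adjusted p = 0.05284) and that of Ccdc107 0.57 (SE 0.39, no test). The call on Rmrp was lost without mouse 187 (edgeR adjusted p = 0.05372) or 194 (edgeR adjusted p = 0.05404) and with all 48 libraries in the fit (edgeR adjusted p = 0.1174), with estimates of 1.49 to 1.82 when any mouse was left out. The call on Rpph1 was lost without mouse 187, 188, 189, 190, 193, 194 or 198. With the mouse as a block Rn7sk passed, at 0.84 (edgeR adjusted p = 0.0395). So 2 of the 3 members tested were called where 2.33% of genes were. In SYN from 5m to 18m the values were 0.16 (SE 0.47) for Rmrp, -0.13 (SE 0.36) for Rpph1, -0.14 (SE 0.49) for Rn7sk and -0.15 (SE 0.43) for Ccdc107. There edgeR called 0 of 4 members and 0 of 14301 genes (0.0%), with 0 members and 393 genes at an unadjusted p under 0.05 and 0 genes by DESeq2. This step also holds the 5m SYN pellets that chose Rmrp, so its value is not independent of the choice. In SYN from 3w to 5m, a contrast that contains the values that chose Rmrp, the ratio was higher by 1.57 for Rmrp (SE 0.51), 0.82 for Rn7sk (SE 0.50), 0.80 for Rpph1 (SE 0.37) and 0.23 for Ccdc107 (SE 0.46), with no test.

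Pellet over input also differed between synaptosomes and homogenate for some members. A spin before the cushion is described for TH lysates only, so the compartments were not prepared alike, and its part was not tested. For Rpph1 the ratio was higher in SYN than in TH by 2.73 at 3w (SE 0.36), 2.60 at 5m (SE 0.33) and 2.69 at 18m (SE 0.34) on the log2 scale, with edgeR adjusted p of 9.226e-07, 1.451e-07 and 7.472e-08. For Rn7sk it was higher by 2.28 (SE 0.44), 2.20 (SE 0.42) and 1.84 (SE 0.42), with edgeR adjusted p of 0.0001995, 0.0001265 and 0.00108. For Ccdc107 it was higher by 2.48 at 3w (SE 0.47; edgeR adjusted p = 0.0001678), and stood at 2.15 (SE 0.40) at 5m and 0.26 (SE 0.39) at 18m, with no test. For Rmrp the difference was 0.72 (SE 0.46), 0.63 (SE 0.40) and 0.25 (SE 0.40) and passed at no age. At 3w and 5m these tests use the SYN pellets that chose Rmrp and are not independent of the choice. The counts were 3 of 4 members tested at 3w, 2 of 3 at 5m and 2 of 3 at 18m, all higher in SYN, against 17.7%, 23.0% and 24.7% of genes. Of the 91 short structural RNAs tested other than the members, 14 were higher in SYN and 9 lower at 3w, 30 higher and 1 lower at 5m, and 44 higher and 1 lower at 18m. Their medians were 1.64, 2.24 and 2.21 on the log2 scale, against -0.03, 0.00 and -0.01 for all genes. The 9 lower ones at 3w were all small nuclear RNAs, of which 8 were higher.

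The proteins that work with these RNAs were followed through their own transcripts, from lists drawn up with earlier results of these data known. Of 11 subunits of RNase P and RNase MRP, 2 rose in TH pellets between 3w and 5m: Rpp25l by 0.74 (SE 0.14; edgeR adjusted p = 0.001802) and Pop5 by 0.54 (SE 0.14; edgeR adjusted p = 0.01691). The median of the list was 0.37 against 0.01 for all genes, and 0 fell. The share called is near the 17.9% of all genes in this contrast. In TH at 3w, 1 was higher in the pellet than in input and 3 were lower, where 52.8% of all genes were called. The median was -0.39 against -0.05 for all genes. In TH at 5m, 4 of the 11 were higher in the pellet than in input, which were Pop7 (1.15, SE 0.14), Rpp25l (0.63, SE 0.13), Rpp25 (0.55) and Pop4 (0.43), and 1 was lower, Pop1 (-0.40, SE 0.12), where 62.1% of all genes were called. Pop1 codes for the largest protein shared by both enzymes. In SYN input at 5m, 5 of the 11 were lower than in TH input and 0 higher, with Pop1 at -1.87 (SE 0.25), Rpp30 at -1.17 (SE 0.33), Rpp40 at -1.13, Rpp21 at -0.88 and Pop4 at -0.55, against 72.7% of all genes called in either direction.

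Of the 7 genes of the 7SK particle and P-TEFb, 1 rose in TH pellets from 3w to 5m, Mepce, the 7SK cap methylase, by 0.26 (SE 0.08; edgeR adjusted p = 0.03316), near the 17.9% of all genes. In TH at 5m, where 62.1% of genes were called, 4 were higher in the pellet than in input, Hexim1 (1.37, SE 0.15) and Hexim2 (0.71, SE 0.14), the proteins through which 7SK holds P-TEFb, with Mepce (0.50) and Larp7 (0.41). The 3 lower ones were the P-TEFb genes Cdk9 (-0.49), Ccnt1 (-0.28) and Ccnt2 (-0.53). In SYN input at 5m, Hexim1 was higher than in TH input (0.98, SE 0.15) and Ccnt2, Larp7 and Cdk9 lower (-2.03, -0.59 and -0.56), where 72.7% of all genes were called.

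Of the 8 Y RNA binding proteins, 0 passed by edgeR in TH pellets between 3w and 5m, where 17.9% of all genes did. Ro60 (Trove2) stood at -0.14 (SE 0.10) and La (Ssb) at -0.10 (SE 0.13). In TH at 5m, against 62.1% of genes called, 5 were higher in the pellet than in input, with Hnrnpk at 1.14 (SE 0.07), Ssb at 1.06 (SE 0.11), Ncl at 0.67, Ybx1 at 0.65 and Ybx3 at 0.59, and 2 lower, Ptbp1 (-0.49) and Trove2 (-0.39).

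The machinery that transcribes these RNAs was followed in the same way. Of 18 subunits of RNA polymerase III, edgeR called 0 in TH pellets between 3w and 5m, with a median of -0.07. Of 19 initiation factors and regulators, 1 rose, Snapc2 (0.51, SE 0.16; edgeR adjusted p = 0.0337), a subunit of the complex that binds the upstream element of such promoters, and 1 fell, Gtf3c6 (-0.68, SE 0.22; edgeR adjusted p = 0.04064), a subunit of TFIIIC. The share of all genes called in TH pellets between 3w and 5m was 17.9%. In TH at 5m, 7 of the 18 subunits were higher and 1, Polr3e (-0.47), lower in the pellet than in input, and 7 of the 19 factors were higher and 6 lower. Of all 18416 genes 5507 were higher and 5926 lower there, 62.1% in all, so the counts of the factors lie near those of genes at large.

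Other polymerase III RNAs give a comparison for the members. Of 10 listed, 3 copies of 7SL, the RNA of the signal recognition particle, had enough counts: Rn7s1, Rn7s2 and Rn7s6, which are near-identical, so their split is uncertain. In TH at 5m they were lower in the pellet than in input by -4.87, -4.89 and -4.27 on the log2 scale (SE 0.22, 0.22 and 0.40), between Rn7sk and Rmrp. In SYN input at 5m they were higher than in TH input, by 1.49, 1.41 and 2.30 (SE 0.35, 0.36 and 0.31; edgeR adjusted p = 0.0004464, 0.0008887 and 1.602e-07), where Rmrp, Rn7sk and Rpph1 were all lower. At 3w 0 of these 3 passed by edgeR (0.13 to 0.77), and at 18m 1 did, Rn7s6 at 0.93 (SE 0.31; edgeR adjusted p = 0.009425), with Rn7s1 and Rn7s2 at 0.13 and 0.03. The shares of all genes called in this comparison were 71.0% at 3w, 72.7% at 5m and 72.3% at 18m. Within libraries, Rn7s1 and Rn7s2 reads per Rn7sk read were 10.1 times higher in SYN than in TH input on average, and higher in 12 of 12 mice. In TH pellets from 3w to 5m, Rn7s2 rose by 0.98 (SE 0.32; edgeR adjusted p = 0.04044), near the value of Rn7sk, and Rn7s1 was at 0.90 (SE 0.33; edgeR adjusted p = 0.06839).

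The annotation holds 3522 short structural RNAs besides the members (ribozymes, small nuclear, small nucleolar, small Cajal body and miscellaneous RNAs). Of these 112 had enough counts for the TH pellet against input comparison at 5m. There 99 were lower in the pellet and 1 higher, with a median of -2.20 against -0.05 for all genes, of which 62.1% were called in either direction. Rpph1 (-5.88) and Rn7sk (-5.50) lay well below that median and Rmrp (-1.81) above it. At 3w 69 were lower and 5 higher, and at 18m 105 lower and 0 higher, against 52.8% and 64.0% of all genes called. In SYN at 5m, 27 of 34 were lower in the pellet and 0 higher, with a median of -1.58, against 29 lower at 3w and 7 at 18m. The shares of all genes called there were 20.0% at 5m, 18.5% at 3w and 12.6% at 18m. In TH pellets from 3w to 5m, 46 were tested, of which 7 rose and 8 fell, against 17.9% of all genes called. Their median was 0.25, and Rmrp stood at 1.96. A test of the members against this class was not made. The 8 nuclear long noncoding RNAs were lower in SYN than in TH input at 5m in 8 of 8, where 72.7% of all genes were called. Their median was -3.14, close to Rmrp (-2.80) and Rn7sk (-2.50). In TH at 5m they were lower in the pellet in 8 of 8, with a median of -1.18, where 62.1% of all genes were called. In TH pellets between 3w and 5m 5 of the 8 fell, as given above, and the other log2 fold changes reached at most 0.02.

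Across the 12 groups of fraction and age, the mean log2 level of Rpph1 followed that of Rn7sk with a Pearson r of 0.994, and Rmrp followed Rn7sk with 0.792 and Rpph1 with 0.726. Rmrp and Ccdc107, which share the 124 bases, had an r of 0.343. Among 13727 other genes, the profile of Rmrp was most like those of Ralgps1 (r = 0.988), E2f4 (0.983) and Tbc1d2b (0.978), whose levels spanned 1.70, 1.55 and 1.91 on the log2 scale where Rmrp spanned 6.73. Rpph1 was most like Ppp2r5c (0.975), Rnu12 (0.964) and Cdk10 (0.964), and Rn7sk most like Rnu12 (0.966), Ppp2r5c (0.965) and Fopnl (0.964). Rnu12 is a small nuclear RNA of the minor spliceosome. Ccdc107 was most like Pxdn (0.899), Rpl22l1 (0.886) and Sec22a (0.883). The 12 points share mice, libraries and scaling, and these correlations are a description.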

How the data were processed

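RNA of 48 cortex libraries, 4 fractions of each of 12 mice, was measured by rRNA-depleted, strand-specific sequencing (NEBNext Ultra II Directional) with UMI adaptors, whose use in counting is not given in the sources used here. Sequencing took more than 1 run, and the labels do not say which library was in which. The authors deposited raw counts per gene, obtained with bcl2fastq 2.20.0.422, TopHat2 2.1 and featureCounts without regard to strand, on GRCm38 per the submitters' processing notes. Of 48526 identifiers, 48144 are in the GENCODE annotation used for names, positions and sequences. Totals ranged from 1780267 to 18590040 counts, so a CPM below about 2 rests on few reads in the shallowest library.

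Tests on the counts used the quasi-likelihood functions glmQLFit and glmQLFTest of edgeR (4.0.16, under R 4.3.3), two-sided, after TMM and filterByExpr, with Benjamini-Hochberg adjustment over all genes tested and a threshold of 0.05. Age was tested in the 12 libraries of a fraction, synaptosomes against homogenate and pellet against input in 24 libraries, and the difference between compartments in all 48. The self-test ran on simulated counts. Alternatives were DESeq2 1.42.0, library size, other filters, totals without abundant genes, other sets of libraries, the mouse as a block, and each mouse left out. Those without the SYN pellets of mice 195 and 198, or the SYN inputs of mice 189 and 190, were chosen after seeing the data. Members, lists and tests were chosen with earlier results of these data known. Ccdc107 was not tested where a comparison contains its TH pellet over input ratio at 5m or 18m. Named are all members, at most the 2 largest called changes of a list plus genes behind counts of 5 or fewer, and the 3 genes most alike in profile (at least 10 counts in every library of a group; log2 CPM with a prior count of 2). One marker of a list, and the sums and medians that include it, are not reported here.

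The 4 libraries of a mouse come from the same animal, so the numbers pair them. The correlation of their deviations from group means, over 9651 genes, had a median of 0.135 for TH input and pellet and 0.25 for SYN input and pellet. The median was 0.168 for TH and SYN input and -0.081 for TH and SYN pellets, where 5 of 12 mice were over 0. Single mice ran from -0.696 to 0.71 for SYN input and pellet.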

Additional observations from a re-analysis of the deposited data

Results flagged for a closer look

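Effects that differed between groups by an interaction test are listed with their difference of log2 fold changes. Pellet over input in TH rose from 3w to 5m by 1.66 for Rmrp and 0.94 for Rpph1. Pellet over input was higher in SYN than in TH for Rpph1 by 2.73 at 3w, 2.60 at 5m and 2.69 at 18m, and for Rn7sk by 2.28, 2.20 and 1.84. For Ccdc107 the difference was 2.48 at 3w. In 48 groups of 4 libraries (4 members in 12 groups), none held a library apart from the others by Dixon's criterion, which chance would meet in about 1 of 20 groups.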

How the results depend on the processing

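Of 20 tests of members for an age change within a fraction, 4 passed, 9 with no filter on low counts and 3 to 5 with each mouse left out. Of 7 tests of an age change of pellet over input 2 passed, 0 with all 48 libraries fitted together, 1 with library size instead of TMM, and 0 to 3 with each mouse left out. Of 24 tests of SYN against TH 17 passed, 21 with library size instead of TMM (Rpph1 in pellets at 3w and 18m and Rn7sk at 3w and 5m in addition), 18 with the mouse as a block, and 16 to 18 with each mouse left out. Of 22 tests of pellet against input 19 passed, 18 with the block, and the 10 tests of the difference between compartments gave 7 under each alternative. The block changed no other call than those given for Rn7sk and Rmrp. Values that reversed were all short of the threshold or untested. With library size these were Ccdc107 in SYN against TH pellets at 18m (-0.10), Rpph1 there at 5m (-0.16), Ccdc107 in SYN pellet against input at 3w (0.029) and in SYN against TH input at 18m (-0.40). The last was -0.12 with at least 10 counts in every library, and Ccdc107 in SYN pellet against input at 3w was 0.024 with no filter. Without the SYN pellets of mice 195 and 198, Rmrp in SYN pellets from 5m to 18m was 0.14, and pellet over input in SYN over that step was 0.009 for Ccdc107, 0.17 for Rpph1 and 0.34 for Rn7sk. With each mouse left out, that last step ran from -0.37 to 0.57 for Rmrp, -0.45 to 0.21 for Rpph1, -0.69 to 0.34 for Rn7sk and -0.45 to 0.013 for Ccdc107. In the same way Rmrp in the difference between compartments at 18m ran from -0.20 to 0.74, Rpph1 pellet over input in TH from 5m to 18m from -0.52 to 0.015, and Rn7sk in SYN against TH pellets at 5m from -0.52 to 0.10. Ccdc107 ran from -0.15 to 0.53 for pellet over input in SYN from 3w to 5m, -0.24 to 0.34 and -0.14 to 0.18 for SYN pellet against input at 3w and 18m, -0.018 to 0.36 for SYN against TH input at 18m, and -0.17 to 0.34 for TH input from 3w to 5m. Without the SYN inputs of mice 189 and 190 none of 16 values changed direction or side of the threshold. The causes were not tested. In shallow libraries depth limits Ccdc107, at 14 counts in its lowest library, and the Y RNAs.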
